A study of Mus musculus with 12 samples.

Results

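The ligands and receptors of the epidermal growth factor receptor (EGFR) family were followed in the colon mucosa of bone marrow chimeric mice during chemically driven colitis and carcinogenesis. The 9 genes Areg, Ereg, Hbegf, Tgfa, Btc, Nrg1, Egfr, Erbb2 and Erbb3 were found by matching the accession of each array probe to its RefSeq symbol, which gave 20 of the 41174 gene probes. A total of 8 genes, through 16 probes, exceeded the scanner software's background test on every array of some group (all 3 mice) and were tested among 23736 genes, while Ereg did not pass this filter. All recipients were wild-type C57BL/6 mice, and the donor marrow was C57BL/6 wild type (WT marrow) or C57BL/6 Muc1 knockout (KO marrow), so that the knockout was confined to cells derived from the donor marrow. No source used here gives the share of host cells that donor cells had replaced. Treated mice of both kinds received azoxymethane (AOM), a colon carcinogen, at 12.5 mg/kg by intraperitoneal injection, and 5 days later began drinking dextran sodium sulfate (DSS), which injures the colon lining. They drank 2% DSS for 4 days and plain water for 14 days, repeated this cycle, and then drank 2.5% DSS for 5 days, with the colon taken 1 day later. The other mice of both kinds were left untreated. Each of the 4 groups (WT_untreated, KO_untreated, WT_AOMDSS and KO_AOMDSS, named by marrow and treatment) held 3 mice, with RNA from the scraped mucosa of 1 colon on each single-colour array. No source used here gives the age or sex of the mice.

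Egfr encodes a receptor tyrosine kinase of epithelial cells. Its ligands amphiregulin (Areg), epiregulin (Ereg), heparin-binding EGF-like growth factor (Hbegf), transforming growth factor alpha (Tgfa) and betacellulin (Btc) are made as membrane-anchored precursors and released by metalloproteases. Erbb2 has no known ligand and pairs with the other receptors, whereas Erbb3 has little kinase activity of its own and binds neuregulin 1 (Nrg1). In the intestine, signalling through this family is known for its part in the repair of injured epithelium and in tumour growth.

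The arrays lay on 3 slides of 4 arrays, and the slides did not hold the groups evenly. All 3 WT_untreated arrays lay on slide 1 together with KO_untreated 1. The other KO_untreated arrays shared slide 2 with WT_AOMDSS 3 and KO_AOMDSS 3, and slide 3 carried the remaining treated arrays. Slide 3 was scanned on another day than slides 1 and 2. It had 491 to 767 gene spots per array marked as non-uniform, against 4 to 51 on slides 1 and 2. The 75th percentile of the signal, by which each array was scaled, was 153 units on WT_AOMDSS 3 and 332 to 768 units on the other arrays. Between 58.4% and 78.7% of gene probes were well above background. The labelled tissue was checked with 12 colon epithelial markers, which were all well above background on all arrays of every group, and 0 of them differed between treated and untreated mice with either marrow in the fit without a block. With slide as a block, 1 of the 12, Cdx1, was called lower with KO marrow (-2.60, limma adjusted p = 0.00627). The median gene differed by -0.24 (log2) between treated and untreated mice with WT marrow and by -0.11 with KO marrow. These medians were 0.06 and 0.02 after quantile normalization, 0.39 and 0.23 after normexp background correction, and 0.47 and 0.44 with slide as a block. All levels below are log2 signals relative to the 75th percentile of the same array, and differences are log2 differences ± SE from limma with Benjamini-Hochberg adjusted p over all genes. Levels of different genes or probes cannot be compared on this scale.

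Hbegf transcripts, and Egfr transcripts by the brightest of its probes, were higher in treated than in untreated mucosa with either marrow. No other Egfr probe was called, as described below. Btc was higher with WT marrow, where its difference passed the test. With WT marrow, 3 of the 8 measured genes rose (Hbegf, Btc and Egfr) and 0 fell, against 3.61% of all genes called higher and 10.2% called lower. With KO marrow, 2 of 8 rose (Hbegf and Egfr) and 0 fell, against 1.85% of all genes called higher and 1.31% called lower. The median difference of the 8 genes was 0.72 with WT marrow and 1.15 with KO marrow. In scraped mucosa, a change in the number of cells of a type and a change in RNA per cell cannot be told apart. No slide held both groups with WT marrow, so treatment and slide were fully confounded there. The blocked difference with WT marrow thus leans on KO-marrow arrays, with KO_untreated the only group on both slide 1 and another slide. With KO marrow only slide 2 held both groups, so treatment and slide were partly confounded. When slide was a block in the fit, 0 of the 8 genes were called with WT marrow, where 0.468% of all genes were called higher. With KO marrow, 3 of 8 were then called higher (Hbegf, Egfr and Nrg1, the last against untreated values partly below detection), where 4.66% of all genes were. Without single arrays the number called ranged from 0 to 3 with either marrow. It was 0 with WT marrow without WT_untreated 1, WT_untreated 2 or WT_AOMDSS 1, and 1 without WT_AOMDSS 2. With KO marrow it was 0 without KO_untreated 2, and 1 without KO_untreated 1, KO_untreated 3, KO_AOMDSS 1 or KO_AOMDSS 3.

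**Figure D1:**
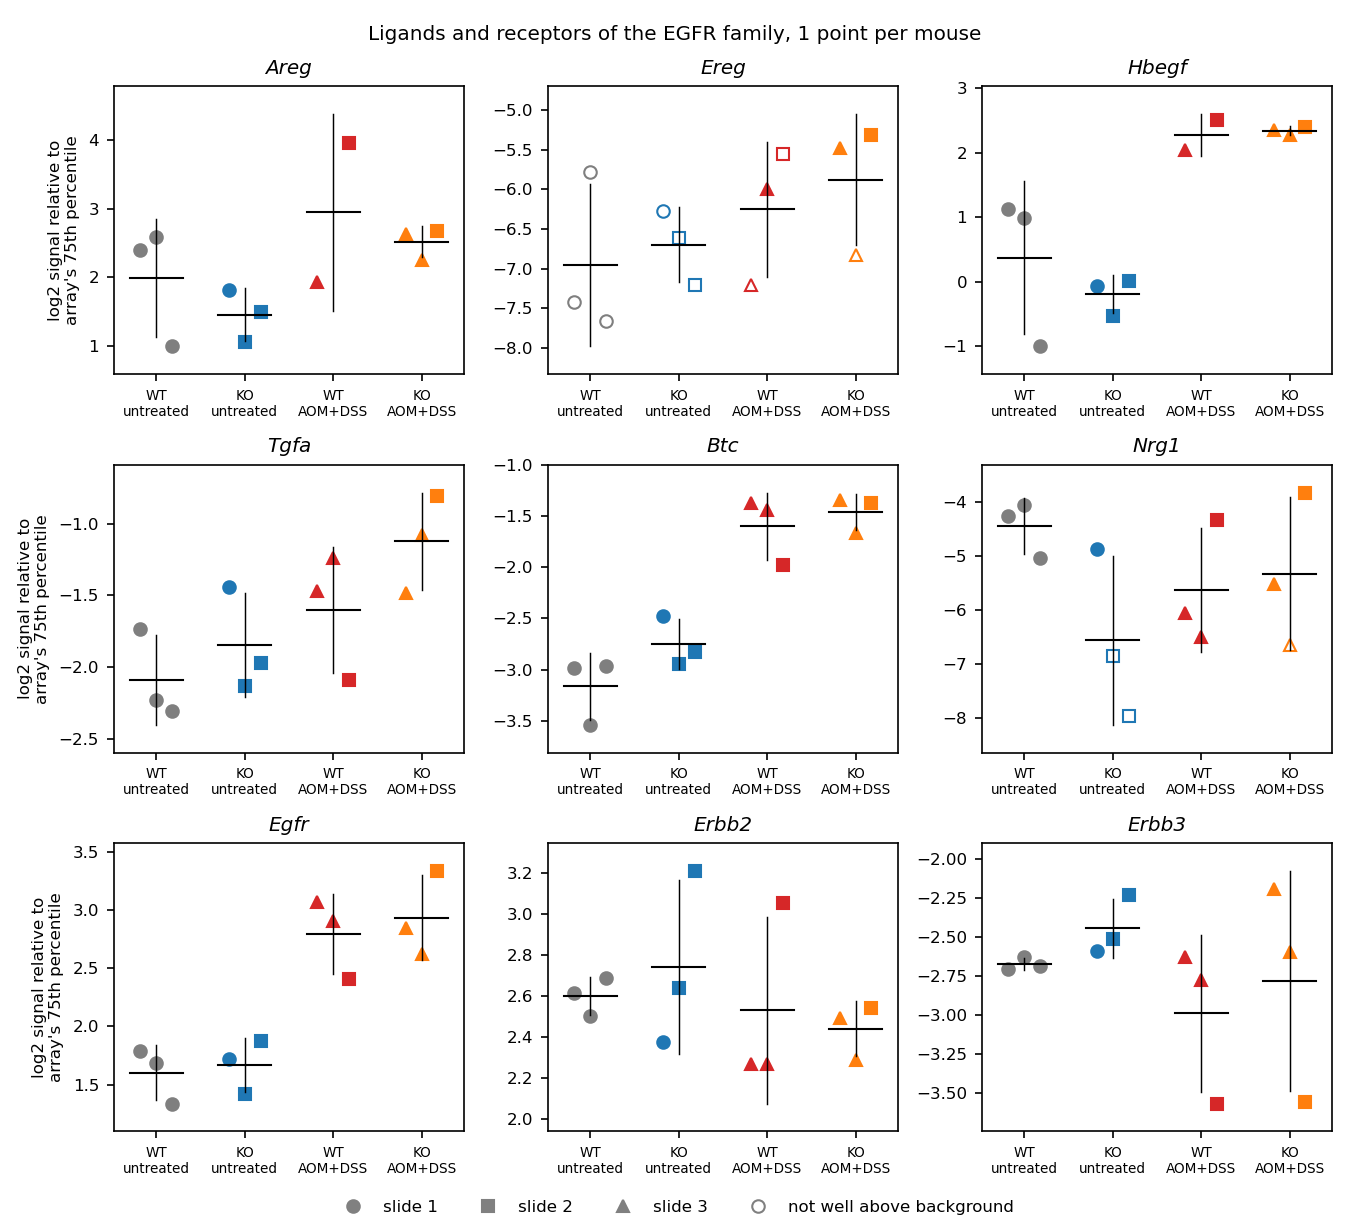
Level of each gene in each mouse (y axis, log2 signal relative to the 75th percentile of the array), by group (x axis), with 1 probe per gene; horizontal lines are group means, vertical lines SD, marker shapes slides, and open markers values not well above background. For Hbegf, Btc and Egfr every measured treated mouse lies above every untreated mouse, while Erbb2 and Erbb3 overlap between treated and untreated mice. The share of all genes with such a separation was not computed. Btc and Erbb3 also do not overlap between the untreated groups of the 2 marrows, where 0 genes were called.

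Hbegf, a ligand that also binds heparan sulfate, had the largest difference of the 8 genes with either marrow in the fit without a block, while Nrg1 had the largest with slide as a block. The Hbegf level was 1.13, 0.99 and -0.99 in WT_untreated mice 1 to 3, and 2.05 and 2.51 in WT_AOMDSS mice 1 and 3. The spot on WT_AOMDSS 2 was marked as an outlier by the scanner software and was left out, although its value, 2.22, lay between the others. The level was -0.07, -0.53 and 0.02 in KO_untreated mice and 2.35, 2.28 and 2.41 in KO_AOMDSS mice. All measured treated mice lay above all untreated mice, and the untreated WT-marrow mice were spread most widely, with WT_untreated 3 the lowest of them. The share of all genes with such a separation was not computed, for Hbegf or for the genes below. The difference was 1.90 ± 0.52 with WT marrow (3.74-fold, n = 3 untreated and 2 treated, limma adjusted p = 0.0356) and 2.54 ± 0.46 with KO marrow (5.81-fold, n = 3 each, limma adjusted p = 0.0116). Blocking on slide gave 2.22 with WT marrow (limma adjusted p = 0.259) and 2.77 with KO marrow (limma adjusted p = 0.0299), and within slide 2 it was 2.66 with KO marrow. The call with KO marrow was lost without KO_untreated 2 (limma adjusted p = 0.0638). The call with WT marrow was lost without any 1 of 6 arrays (WT_untreated 1 or 2, WT_AOMDSS 1, 2 or 3, or KO_AOMDSS 1), with limma adjusted p between 0.0515 and 0.106, and after normexp background correction (1.37, limma adjusted p = 0.0842) or without a variance trend (limma adjusted p = 0.0565).

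Btc, a ligand of Egfr and Erbb4, separated treated from untreated mice with both marrows. Its level was -2.99, -3.54 and -2.96 in WT_untreated mice and -1.38, -1.45 and -1.98 in WT_AOMDSS mice. It was -2.48, -2.95 and -2.83 in KO_untreated mice and -1.34, -1.66 and -1.38 in KO_AOMDSS mice. The lowest treated mouse, WT_AOMDSS 3, still lay above the highest untreated mouse, KO_untreated 1. The difference was 1.56 ± 0.35 with WT marrow (2.96-fold, n = 3 each, limma adjusted p = 0.0189), and 1.29 ± 0.35 with KO marrow, which did not pass the threshold (2.45-fold, n = 3 each, limma adjusted p = 0.0691). Blocking on slide gave 1.83 (limma adjusted p = 0.174) and 1.28 (limma adjusted p = 0.0773), and within slide 2 the difference was 1.51 with KO marrow. The call with WT marrow was lost without WT_untreated 1, WT_untreated 2, WT_AOMDSS 1 or WT_AOMDSS 2 (limma adjusted p between 0.0537 and 0.0820) and after normexp background correction (1.37, limma adjusted p = 0.0548). With KO marrow the difference passed the threshold without a variance trend (limma adjusted p = 0.0434) and without WT_AOMDSS 3 (limma adjusted p = 0.0334). A second Btc probe was not well above background on any array.

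Areg, a ligand induced in many injured epithelia, was higher on average in treated mice but did not pass the test. Its level was 2.39, 2.58 and 0.99 in WT_untreated mice, 1.93 and 3.96 in WT_AOMDSS mice 1 and 3 (2.09 on the marked spot of WT_AOMDSS 2), 1.82, 1.05 and 1.49 in KO_untreated mice and 2.63, 2.26 and 2.67 in KO_AOMDSS mice. The groups overlapped with WT marrow, where WT_AOMDSS 3 stood far above the rest, and did not overlap with KO marrow. The difference was 0.96 ± 0.57 with WT marrow (limma adjusted p = 0.259) and 1.07 ± 0.51 with KO marrow (limma adjusted p = 0.366). Without WT_AOMDSS 3 the difference with WT marrow was -0.06. The differences blocked on slide were 2.00 (limma adjusted p = 0.266) and 1.92 (limma adjusted p = 0.0753). Across the 11 arrays that measured both, Areg and Hbegf correlated at r = 0.81, and at 0.77 after group means were removed, as a description of arrays that share slides and scaling.

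Tgfa, a ligand of Egfr, was measured by a probe of 10 spots whose level ranged from -2.31 to -1.44 in the 6 untreated mice and from -2.09 to -0.81 in the 6 treated mice. The groups overlapped, and the differences of 0.49 ± 0.36 with WT marrow (limma adjusted p = 0.367) and 0.72 ± 0.36 with KO marrow (limma adjusted p = 0.394) did not pass the test. The second probe of Tgfa differed in direction with WT marrow, at -1.94 (limma adjusted p over probes = 0.0671), a value that was -0.04 with slide as a block.

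Ereg, whose product binds Egfr and Erbb4, was near the limit of detection. Its only probe exceeded background on 3 of the 6 treated arrays and on 0 of the 6 untreated arrays (WT_AOMDSS 2, KO_AOMDSS 1 and KO_AOMDSS 3). Its measured mean was -6.70 in KO_untreated and -5.88 in KO_AOMDSS mice. Any untreated value below the dimmest detected probe of its array was then replaced by that probe's signal. The KO_AOMDSS mean was 1.05-fold that of KO_untreated after this replacement. That is not a strict lower bound, because KO_AOMDSS 2 was itself not well above background. With the filter on dim probes lifted, the differences were 0.70 ± 0.75 with WT marrow (limma adjusted p = 0.585) and 0.82 ± 0.75 with KO marrow (limma adjusted p = 0.843).

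Nrg1, the ligand of Erbb3 and Erbb4, was dim, and its values differed between slides in the groups that spanned slides. Its brightest probe had levels of -4.26, -4.05 and -5.04 in WT_untreated mice and -6.05, -6.50 and -4.34 in WT_AOMDSS mice. It had levels of -4.87, -6.86 and -7.95 in KO_untreated mice and -5.51, -6.65 and -3.83 in KO_AOMDSS mice. KO_untreated 2 and 3 and KO_AOMDSS 2 were not well above background, and the highest treated values of each marrow were those on slide 2. The difference was -1.18 ± 0.93 with WT marrow (limma adjusted p = 0.398) and 1.23 ± 0.93 with KO marrow (limma adjusted p = 0.622). With slide as a block it became 2.75 with WT marrow (limma adjusted p = 0.197) and 3.47 with KO marrow (limma adjusted p = 0.0133). That call rests in part on values below detection, since neither untreated KO-marrow array of slide 2 was well above background. Within slide 2, KO_AOMDSS 3, a single array well above background, was 4.14-fold higher than those 2 arrays after the replacement described for Ereg. This is not a strict lower bound, because undetected probes can lie above the replacement level. On KO_untreated 2 a Tgfa probe at -4.65, above the replaced mean of -5.88, was not well above background. With slide as a random block the Nrg1 difference with KO marrow was 2.38 (limma adjusted p = 0.148). The direction with WT marrow thus depended on the model, being positive also after normexp background correction (1.20).

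**Figure D2:**
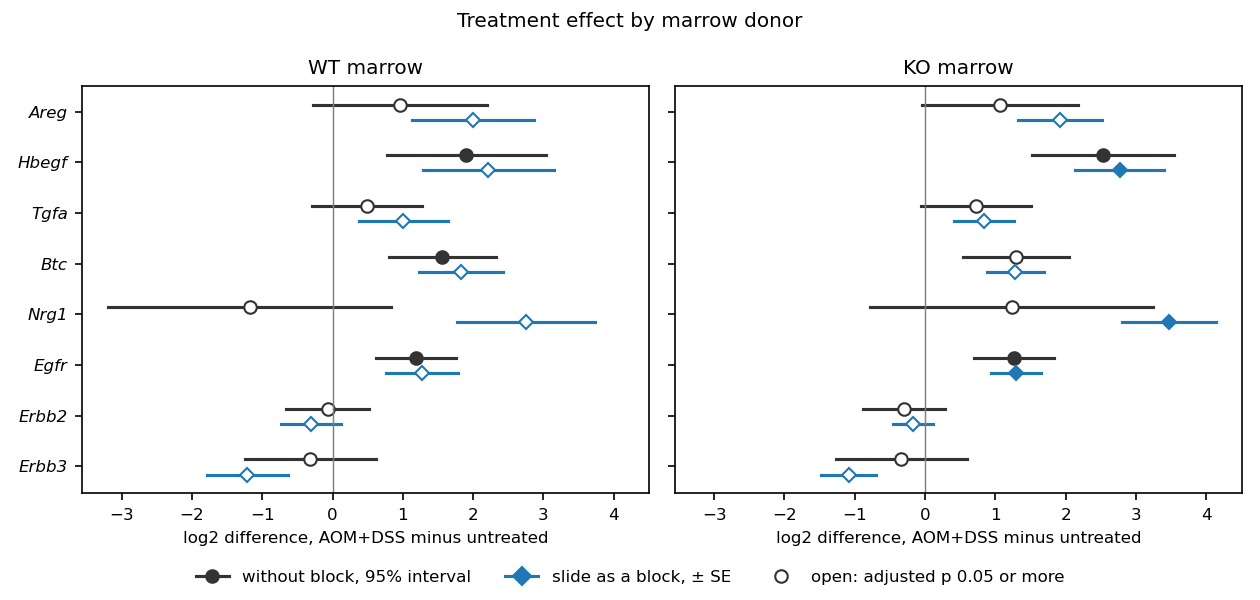
Treated minus untreated difference (x axis, log2) of the 8 measured genes (y axis), with WT marrow (left) and KO marrow (right); circles with 95% intervals are without a block, diamonds with ± SE have slide as a block, and filled markers have an adjusted p under 0.05. Hbegf and Egfr are filled in both fits with KO marrow, whereas with WT marrow Hbegf, Btc and Egfr are filled only without the block and Nrg1 changes sign with it.

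Egfr transcripts, measured by the brightest Egfr probe (A_52_P106259, 10 spots per array), rose with both marrows. The level was 1.79, 1.68 and 1.34 in WT_untreated mice and 3.07, 2.91 and 2.41 in WT_AOMDSS mice. It was 1.72, 1.42 and 1.88 in KO_untreated mice and 2.85, 2.62 and 3.33 in KO_AOMDSS mice. All treated mice lay above all untreated mice. The difference was 1.19 ± 0.26 with WT marrow (2.28-fold, n = 3 each, limma adjusted p = 0.0182) and 1.26 ± 0.26 with KO marrow (2.40-fold, n = 3 each, limma adjusted p = 0.0199). Blocked on slide it was 1.27 (limma adjusted p = 0.238) and 1.30 (limma adjusted p = 0.0477), and within slide 2 it was 1.69 with KO marrow. The call with WT marrow was lost without WT_untreated 1, WT_untreated 2 or WT_AOMDSS 1 (limma adjusted p between 0.0540 and 0.0773). The call with KO marrow was lost without KO_untreated 1, 2 or 3, KO_AOMDSS 1 or KO_AOMDSS 3 (limma adjusted p between 0.0509 and 0.106) and without a variance trend (limma adjusted p = 0.0543). After normexp background correction neither passed (0.78, limma adjusted p = 0.189, and 1.12, limma adjusted p = 0.0913), nor did the mean of the 4 Egfr probes (0.42, limma adjusted p = 0.395, and 0.71, limma adjusted p = 0.342).

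The 4 Egfr probes did not move alike. The brightest probe and A_52_P674338 are filed under RefSeq transcript NM_207655, and A_51_P392242 and A_52_P56471 under NM_007912. No source used here gives where on these transcripts the probes lie. A_51_P392242, also printed as 10 spots, differed by 0.03 ± 0.31 with WT marrow (limma adjusted p over probes = 0.954) and by 0.34 ± 0.31 with KO marrow (limma adjusted p over probes = 0.689). A_52_P56471 differed by -0.61 ± 0.48 with WT marrow and 0.28 ± 0.48 with KO marrow (limma adjusted p over probes = 0.409 and 0.845). The WT-marrow differences of both probes were lowered by a single array, WT_AOMDSS 3, which also had the lowest scaling value. A_51_P392242 was 0.29, 0.05 and -0.94 in WT_AOMDSS mice 1 to 3, against a WT_untreated mean of -0.24. A_52_P56471 was -0.67, -0.71 and -2.89 in the same mice, against a WT_untreated mean of -0.82. A_52_P674338 differed by 1.05 ± 0.43 with WT marrow and 0.97 ± 0.43 with KO marrow, without passing the threshold (limma adjusted p over probes = 0.119 and 0.325), and by 0.08 and 0.54 with slide as a block. Within each array, the log2 ratio of the brightest probe to A_51_P392242 was 1.62 to 1.98 in the 6 untreated mice and 2.33 to 3.35 in the 6 treated mice, with no overlap. The mean ratio differed by 1.04 (2-sided exact permutation test, p = 0.00216, the smallest that 924 splits of 6 against 6 can give, Benjamini-Hochberg adjusted over 14 probe pairs p = 0.0101), and by 1.48 within slide 2. Those splits take mice of both marrows and all slides together, and this pair was chosen after its values were seen. Slide 1 held only untreated and slide 3 only treated mice, so these tests cannot separate treatment from slide. The Egfr pairs share the same 4 probes, so their p-values are not independent of one another. The other pairs across the 2 transcripts gave 1.39 for the brightest probe over A_52_P56471, 1.17 for A_52_P674338 over A_52_P56471 (exact permutation tests, adjusted p = 0.0101 for each) and 0.82 for A_52_P674338 over A_51_P392242 (exact permutation test, adjusted p = 0.0455). Pairs filed under the same transcript gave 0.22 and 0.35 and did not pass (exact permutation tests, adjusted p = 0.467 and 0.165). The 8 pairs of Tgfa, Erbb2 and Erbb3 probes did not pass over all arrays (exact permutation tests, adjusted p between 0.121 and 0.831). Within slide 2 some of these also shifted, by 3.23 for Erbb2 and by up to 1.43 for Erbb3, so a shift there was not particular to Egfr. The SD of the log2 signal between spots of one array had a median of 0.11 for the brightest probe and 0.09 for A_51_P392242.

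**Figure D3:**
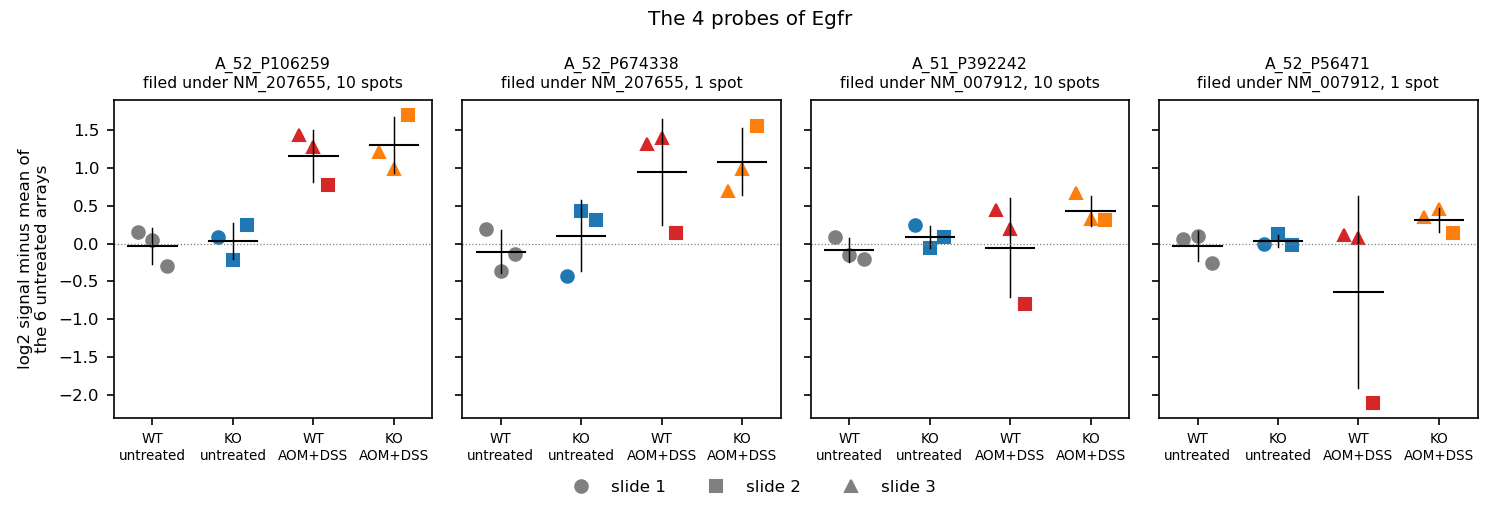
Signal of each Egfr probe minus the mean of that probe over the 6 untreated arrays (y axis, log2) by group (x axis); points are mice, horizontal lines group means, vertical lines SD and marker shapes slides. Treated and untreated mice are separate for A_52_P106259 alone and overlap for the other probes, of which A_52_P674338 has the larger mean differences (1.05 and 0.97). For A_52_P674338 the overlap comes from WT_AOMDSS 3 alone (level -2.90), as the other treated mice lie above every untreated mouse.

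Erbb2, the receptor without a known ligand, and Erbb3, the receptor of Nrg1, gave no call by the brightest probe of each. The Erbb2 level ranged from 2.38 to 3.21 in untreated and from 2.27 to 3.06 in treated mice, and the difference was -0.07 ± 0.27 with WT marrow (95% interval -0.66 to 0.52) and -0.30 ± 0.27 with KO marrow (95% interval -0.89 to 0.28). The Erbb3 level ranged from -2.70 to -2.23 in untreated and from -3.57 to -2.19 in treated mice, with both treated arrays of slide 2 lowest. Its difference was -0.32 ± 0.43 (95% interval -1.25 to 0.62) and -0.34 ± 0.43 (95% interval -1.27 to 0.60). Blocked on slide, the Erbb3 differences were -1.21 (limma adjusted p = 0.301) and -1.09 (limma adjusted p = 0.107), and within slide 2 the difference was -1.19 with KO marrow. On the dimmer Erbb3 probes A_51_P342050 and A_51_P488243, WT_AOMDSS 3 of slide 2 was instead the highest array (-2.18 and -2.84). A_51_P342050 differed by -0.68 with WT marrow and -0.62 with KO marrow, or -0.35 and -0.14 with slide as a block. A_51_P488243 differed by -0.77 and -0.57, or 0.04 and 0.16 with the block, and neither probe was called. Another dimmer Erbb3 probe, A_52_P133607, fell by 2.02 with WT marrow (limma adjusted p over probes = 0.0315, with 8.93% of all probes called lower). That call was lost with slide as a block (-1.22, limma adjusted p over probes = 0.481). A second Erbb2 probe, A_51_P216179, fell with KO marrow only in the fit with slide as a block (-3.28, limma adjusted p over probes = 0.0071, with 3.63% of all probes called lower), against -1.25 without it (limma adjusted p over probes = 0.533).

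Marrow genotype was then compared at the same treatment. Of the 8 genes, 0 differed between KO and WT marrow in treated mice or in untreated mice, and 0 differed in the size of the treatment effect, with 0% of all genes called in each comparison. At an unadjusted limma p under 0.05 there were 231, 2910 and 829 of 23736 genes. With no difference at all, a share of 0.05 of the genes would be expected to reach that p. Only KO_untreated 1 shared a slide with WT_untreated arrays, so marrow and slide were partly confounded in untreated mice. In treated mice, the KO minus WT difference was 0.06 ± 0.52 for Hbegf (95% interval -1.07 to 1.19), 0.14 ± 0.35 for Btc (-0.62 to 0.90) and 0.14 ± 0.26 for Egfr (-0.43 to 0.71). The treatment effect was 0.63 ± 0.70 larger with KO marrow for Hbegf (95% interval -0.88 to 2.15) and 0.07 ± 0.37 larger for Egfr (-0.73 to 0.88). For Btc it differed by -0.27 ± 0.49 (-1.34 to 0.80). In untreated mice the KO minus WT difference of Nrg1 was -2.11 ± 0.93 (limma adjusted p = 0.404), or -0.42 with slide as a block.

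Genes around the receptors were counted from lists, to be read against the 3.61% and 10.2% of all genes called higher and lower with WT marrow and the 1.85% and 1.31% with KO marrow. Of 3 measured other ligands (Egf, Epgn and Nrg4), 0 were called with either marrow, and Epgn, the ligand epigen, was called with KO marrow only with slide as a block (2.51, limma adjusted p = 0.0444). Of 8 genes of ligand shedding and trafficking, 0 were called. Among 15 feedback inhibitors, Dusp6, a phosphatase of ERK, rose with both marrows (1.65 ± 0.36, limma adjusted p = 0.0170, and 1.62 ± 0.36, limma adjusted p = 0.0264). With WT marrow, 2 of the 15 fell, a share near that of all genes called lower, namely Lrig3 and Spred2 (-1.47 ± 0.30, limma adjusted p = 0.0129, and -1.65 ± 0.44, limma adjusted p = 0.0314). Among 24 adaptors and kinases, Nras rose (1.09 ± 0.24, limma adjusted p = 0.0189) and Nck1 fell (-0.70 ± 0.21, limma adjusted p = 0.0449) with WT marrow, and Nck1 fell with KO marrow (-1.27 ± 0.21, limma adjusted p = 0.00568). Among 18 early target genes of growth factor signalling, Myc (1.95 ± 0.32, limma adjusted p = 0.00549) and Ier3 (1.71 ± 0.50, limma adjusted p = 0.0408) rose with WT marrow. Egr1 (2.08 ± 0.36, limma adjusted p = 0.00778), Egr2 (2.54 ± 0.55, limma adjusted p = 0.0229) and Ier3 (1.99 ± 0.50, limma adjusted p = 0.0480) rose with KO marrow. The early target list had a median of 0.00 with WT marrow and 0.16 with KO marrow. Of the listed genes named above, Ier3 alone was called with WT marrow once slide was a block, and besides Epgn, Nck1, Egr1, Egr2, Ier3 and Myc were called with KO marrow, while Dusp6 was not (limma adjusted p = 0.0684). Ptpn1, a phosphatase of the feedback list, was called with KO marrow in that fit and not without the block (1.84, limma adjusted p = 0.00849).

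**Figure D4:**
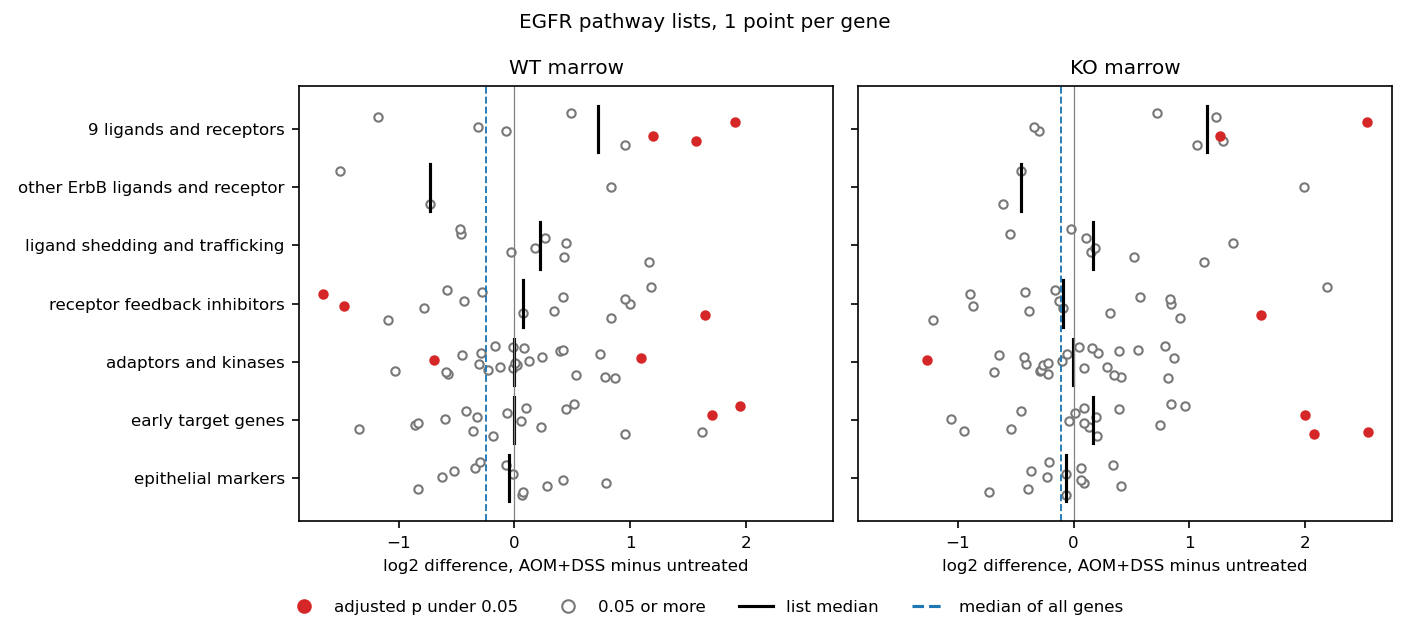
Treated minus untreated difference (x axis, log2) of each gene of the EGFR pathway lists (y axis), with WT marrow (left) and KO marrow (right); red points passed the limma threshold, black bars are list medians and the dashed line is the median of all genes. In both panels most points of each list are open, and the 8 ligands and receptors have medians of 0.72 and 1.15.

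Markers of some other cell types moved with the same contrasts. Their counts are to be read against 3.61% of all genes called higher and 10.2% lower with WT marrow. With KO marrow these shares were 1.85% and 1.31%. Of 10 measured neutrophil markers, 7 rose with each marrow, and their summed level was 0.25 to 0.70 times the array's 75th percentile in untreated mice and 11.8 to 126 times it in treated mice. Of 11 macrophage markers, 8 rose with WT marrow and 7 with KO marrow, with summed levels of 10.66 to 38.05 and 44.7 to 77.05 in untreated and treated mice. Of 12 fibroblast markers, 2 and 3 rose. Of 9 mast cell markers, 4 rose with each marrow and 2 fell with WT marrow, and of 10 T cell and ILC2 markers, 2 (Gata3 and Il1rl1) rose with each. Of 7 smooth muscle, 6 endothelial and 6 enteric glia and neuron markers, 0 rose with either marrow. Of the last list, 1 fell with WT marrow. Blocked on slide, 3 neutrophil, 1 macrophage, 0 fibroblast, 1 mast cell and 1 T cell or ILC2 marker were called higher with WT marrow. With KO marrow 9, 7, 4, 4 and 2 were. In that fit 0.468% of all genes were called higher with WT marrow and 4.66% with KO marrow. The smooth muscle, endothelial and enteric lists again had 0 called higher. The part of these cells in the differences of Hbegf, Btc and Egfr was not tested. The 3 genes most like each called member, by Pearson r of log2 level over the arrays that measured both, were Epha2 (0.98), Trim15 (0.98) and Mpp1 (0.97) for Hbegf over 11 arrays. For Btc over 12 arrays they were Cxcl5 (0.98), Utp15 (0.97) and Syt8 (0.96), and for Egfr over 12 arrays they were Ermp1 (0.99), Grk5 (0.96) and Cxcl1 (0.96). Btc and Egfr correlated at 0.93 with each other over 12 arrays, and at 0.47 after group means were removed. These arrays share slides and the treatment contrast.

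Promoters of Btc and Egfr, the called genes with an entry, and of Areg, whose promoter holds most of the searched motifs, are shown for their sequence. They are RefSeq sequences of build GRCm38.p6, the 250 bases before each gene's start, read 5′ to 3′ on the gene's strand, for the 5 of 9 genes that had an entry. Capitals mark matches, on either strand, to the cAMP response element TGACGTCA, the AP-1 motif TGANTCA, the TATA box TATAAA and the GC box GGGCGG.
Areg, chr5:91139349-91139598, plus strand: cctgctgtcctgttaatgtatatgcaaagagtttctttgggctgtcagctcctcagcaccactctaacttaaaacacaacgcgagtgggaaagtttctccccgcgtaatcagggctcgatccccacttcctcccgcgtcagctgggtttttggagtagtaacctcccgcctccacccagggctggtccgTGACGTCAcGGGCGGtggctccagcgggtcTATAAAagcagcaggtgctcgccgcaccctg
Btc, chr5:91402995-91403244, minus strand: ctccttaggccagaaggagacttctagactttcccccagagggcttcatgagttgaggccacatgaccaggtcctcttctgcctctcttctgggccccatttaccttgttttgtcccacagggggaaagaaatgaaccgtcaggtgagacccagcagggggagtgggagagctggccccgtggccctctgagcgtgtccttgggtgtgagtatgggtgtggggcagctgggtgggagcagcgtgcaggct
Egfr, chr11:16751953-16752202, plus strand: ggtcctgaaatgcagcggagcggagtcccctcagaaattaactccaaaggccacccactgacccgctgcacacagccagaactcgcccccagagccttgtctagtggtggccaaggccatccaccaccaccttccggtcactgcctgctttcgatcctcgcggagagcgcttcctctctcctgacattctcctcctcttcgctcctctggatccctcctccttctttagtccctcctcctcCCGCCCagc
The Areg promoter held the cAMP response element at -61 to -54, the GC box at -52 to -47 and the TATA box at -31 to -26 from the start. The Egfr promoter held a GC box at -9 to -4 and the Btc promoter held none of the 4 motifs. Of 32851 promoters of the same length, 1.55% held the cAMP response element, 6.75% the AP-1 motif, 12.4% the TATA box and 32.7% the GC box.

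The authors' deposited table of 2506 probes, which gives 4 group means per probe, held 5 of the 20 member probes. In the authors' deposited table, the treated minus untreated difference with WT and KO marrow was 1.59 and 1.31 for Btc, 1.21 and 1.28 for the brightest Egfr probe, and 1.91 and 2.55 for Hbegf. In the authors' deposited table it was 0.70 and 1.08 for Areg and 1.33 and 2.16 for the dimmer Nrg1 probe A_52_P369761. The scaling between arrays in that table is not stated, and no source used here gives the rule by which its probes were chosen.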

How the data were processed

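Each mouse had 1 single-colour Agilent array (design 014868, 12 arrays), for which the authors deposited scanner files. Per the file headers, Agilent's Feature Extraction (version 10.7.3.1) made them, and they give spot intensities on a linear scale after background correction by that software. The authors also deposited a table of log2 group means of 2506 probes.

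From the intensities, control spots and spots marked as outliers were left out, log2 signals were taken minus the 75th percentile of each array, and spots of a probe were averaged. Probes that exceeded background on every array of some group were kept, and the brightest of them stood for its gene. Probe names came from RefSeq (GRCm38.p6). limma 3.58.1 in R 4.3.3 fitted a mean per group to all 12 arrays with an intensity trend in the variances, with a threshold of 0.05 after Benjamini-Hochberg adjustment. All 9 members were named, and up to 4 called genes of each list. The members and lists were chosen with earlier results of these data known. The fit was tested on simulated data. Alternatives covered the normalization, the background correction, the filter, the rule for several probes, the variance trend, slide as a block and within slides, replicate number as a block, and each array left out. Keeping the marked spots was an alternative chosen after seeing the data. The planned normexp alternative on mean signals used median signals, because the scanner files as read here held median but no mean signals. Log2 ratios of all 14 pairs of kept probes of the same gene were compared within arrays.

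Replicate numbers were checked by correlating deviations from group means. Between WT_AOMDSS and KO_AOMDSS every same-numbered pair correlated above 0.1 (0.31 to 0.51), where numbers 1 and 2 lay on slide 3 and number 3 on slide 2. In the other pairs of groups they did not, with correlations from -0.38 to 0.43.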

Additional observations from a re-analysis of the deposited data

Results flagged for a closer look

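The Ereg probe was well above background on 3 treated arrays and on 0 untreated arrays, and Ereg was tested only with the filter on dim probes lifted, where it was not called with either marrow. The Nrg1 probe A_52_P369761, which did not represent its gene, was likewise well above background on 3 treated arrays (2 with WT marrow and 1 with KO marrow) and on 0 untreated arrays. Its measured mean was -5.64 in WT_AOMDSS and -6.94 in WT_untreated mice, and -5.19 in KO_AOMDSS and -7.33 in KO_untreated mice. No bound is given for WT marrow, because the highest WT_AOMDSS value, -4.58 on WT_AOMDSS 3, was not well above background. The 2 arrays that were, at -6.05 and -6.28, lay below -5.73, the WT_untreated mean after the replacement described for Ereg. The KO-marrow difference rests on KO_AOMDSS 3, at -3.91, without which no array of either KO-marrow group was well above background. Another Nrg1 probe, A_52_P52635, went the other way with WT marrow, with measured means of -5.67 in WT_untreated and -7.37 in WT_AOMDSS mice. It was well above background on 1 array of WT_untreated mice.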

How the results depend on the processing

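The number of the 8 measured genes called with WT marrow was 3, and it was 0 after normexp background correction and with slide as a fixed or a random block. With KO marrow it was 2, and it was 1 after normexp, with the filter set to all 12 arrays or with the mean of a gene's probes, and 7 within slide 2, where 1 treated array met 2 untreated arrays. Within slide 2, 2 of the 8 genes were called between KO and WT marrow in treated mice, with 1 array each and a spread taken from the untreated pair. Without single arrays the counts ranged from 0 to 3 with WT marrow and from 0 to 3 with KO marrow, and stayed at 0 in the comparisons of marrows and in the difference of treatment effects. With the replicate number as a block the counts were 3 and 2, and 0 in the comparisons of marrows, and the block changed no call of a member.

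Of all genes, 3275 were called with WT marrow, against 127 with slide as a fixed block, 177 as a random block, 856 after normexp, 1879 with the filter on all 12 arrays and 487 to 7603 without single arrays. With KO marrow 749 were called, against 1724 with slide as a fixed block and 251 to 1268 without single arrays. Between untreated marrows 0 were called, but 1666 without KO_untreated 1. Without that array no slide held both untreated groups, so marrow and slide could not be told apart there.

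Directions turned for differences that were not called. With WT marrow, Tgfa was -0.73 with the mean of probes, Nrg1 was 1.20 after normexp, 2.75 with slide as a fixed and 0.61 as a random block, and Erbb3 was 0.27 after quantile normalization and 1.04 after normexp. Erbb3 with KO marrow was 0.092 after normexp. Between treated marrows, Hbegf was -0.10 within slide 2, Btc was -0.45 after normexp and -0.091 within slide 3, Nrg1 was -0.85 after normexp and Egfr was -0.25 within slide 3. Between untreated marrows, Btc was -0.076 after normexp and Egfr -0.011 after quantile normalization, and the Nrg1 difference in treatment effect was -0.39 after normexp. Without single arrays, Areg ranged from -0.060 to 1.98 and Erbb2 from -0.33 to 0.061 with WT marrow, and Erbb3 from -0.63 to 0.051 with KO marrow. Between treated marrows the ranges were -0.16 to 0.29 for Hbegf, -0.049 to 0.25 for Btc, -0.45 to 0.96 for Nrg1 and -0.060 to 0.30 for Egfr. For Egfr they were -0.065 to 0.20 between untreated marrows and -0.13 to 0.23 for the difference in treatment effect. The cause of these changes was not tested. The number of arrays limits the precision, and Ereg and Nrg1 lay near background.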
